A study of Mus musculus with 12 samples.

Results

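The interleukin-1 (IL-1) and interleukin-18 (IL-18) system was followed in mouse bone marrow macrophages (BMMs) and in mesenchymal stem cells (MSCs). Its 8 members were listed by name, with earlier results of these data known: the ligands Il1a, Il1b and Il18, the receptor antagonist Il1rn, the signaling receptor Il1r1 with its co-receptor Il1rap, the decoy receptor Il1r2 and the IL-18 binding protein Il18bp. All 8 were found among the 55487 genes counted, and all 8 passed the filter on low counts in both cell types. IL-1α and IL-1β act through the same receptor, and IL-1 receptor antagonist occupies that receptor without signaling. The decoy receptor takes up IL-1 but has no signaling domain, and IL-18 binding protein holds free IL-18. IL-1β and IL-18 are made as precursors that caspase-1 cleaves inside the inflammasome, and IL-1 is known in bone for promoting osteoclast formation and bone loss.

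The study asked how macrophages shape the fate of MSCs in osteoporosis, and its RNA sequencing covered 2 experiments with 12 libraries. BMMs were from C57BL/6 mice labelled as 8 weeks old, either ovariectomized (OVX, the surgical model of estrogen loss) or sham-operated, with 3 libraries per group. The methods state female mice and give 8 weeks as the age at ovariectomy, so the age at harvest is not clear. Per the methods, BMMs were grown from leg bone marrow with macrophage colony-stimulating factor, so they were cultured cells. MSCs were from C57BL/6 mice of the same labelled age, with 2 libraries per group. They were cultured alone (MSC), with RAW264.7 cells in a transwell (MSC+RAW-TW) or with lipopolysaccharide-stimulated RAW264.7 cells in a transwell (MSC+RAW-LPS-TW). RAW264.7 is a mouse macrophage line, lipopolysaccharide is a bacterial cell wall component that triggers inflammation, and a transwell membrane keeps both cell types apart. All cells were otherwise unmodified. The labels do not tie libraries to single animals or cultures, so p-values measure the spread between these libraries only.

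The libraries held 17012923 to 45367105 counts. Sham replicates 2 and 3 differed by 2.50 to 2.81 times counting noise and the MSC+RAW-TW libraries by 3.07 to 3.26 times, at low and at high counts alike. Every other pair within a group rose from between 3.58 and 6.86 times at low counts to between 18.51 and 120.59 times at high counts. Between 60.0% and 71.4% of the low counts were even numbers, so counting noise itself was wider than that of single reads. Each of these near-identical pairs was therefore counted as 1 sample, which left n = 2 for sham and n = 1 for MSC+RAW-TW. Levels are given for each library as CPM (counts scaled to library size, after TMM normalization), and levels of different members were compared only per kilobase of exon. Sums over marker lists are in CPM, not corrected for length, and are compared between groups and not between lists. BMM and MSC libraries were normalized separately, so levels set across both are descriptions. A gene was called where its log2 fold change was at least 1 either way and its Benjamini-Hochberg adjusted p over all genes was at most 0.05 in edgeR.

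The labelled cell types were checked by markers. Macrophage markers summed to between 44320 and 65880 CPM in the BMM libraries, and Csf1r, the receptor of macrophage colony-stimulating factor, averaged 1061 CPM in sham and 940.7 CPM in OVX. Stromal markers were also present there, at 7682 to 9578 CPM, with Col1a1 at 1993 CPM in sham and 1971 CPM in OVX. The libraries labelled MSC held 2443 to 4579 CPM of the stromal set and 15690 to 40040 CPM of the macrophage set, both below the BMM libraries. Lysozyme (Lyz2) alone took most of the macrophage sums. The other 15 macrophage markers summed to 7693 to 14300 CPM in the BMM libraries and to 6538 to 13370 CPM in those labelled MSC. In MSC cultured alone, Csf1r was at 1111 CPM, near its level in the BMM libraries, and Ptprc (the gene of CD45) was at 169.3 CPM. The stromal gene Pdgfrb was at 159.0 CPM there. The data thus go against a purely stromal label for these libraries, and "MSC" below means the library labelled so. In bulk RNA, fewer cells of a type cannot be told apart from less RNA per cell, and the part of macrophage RNA in the levels below was not tested.

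The stretches before the start sites of 4 members are shown because the results turn on these members, the ligands Il1a and Il1b and the inhibitors Il1rn and Il18bp. Each line gives the last 150 bases before the RefSeq start, 5′ to 3′ on the gene's own strand, in GRCm38. The regions are chr2:129309973-129310122 (minus strand) for Il1a, chr2:129371140-129371289 (minus) for Il1b, chr2:24336710-24336859 (plus, the first of 3 starts) for Il1rn and chr7:102018233-102018382 (minus) for Il18bp. Unlike those of Il1a and Il1b, the Il18bp stretch lies inside the gene as counted (chr7:102014885-102018690). Capitals mark matches to the TATA box (TATAAA), the AP-1 site (TGANTCA) or the C/EBP site (TTNCNNAA), searched on both strands.
Il1a: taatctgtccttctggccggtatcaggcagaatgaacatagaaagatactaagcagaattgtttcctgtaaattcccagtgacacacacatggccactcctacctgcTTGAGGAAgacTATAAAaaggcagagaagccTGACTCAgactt
Il1b: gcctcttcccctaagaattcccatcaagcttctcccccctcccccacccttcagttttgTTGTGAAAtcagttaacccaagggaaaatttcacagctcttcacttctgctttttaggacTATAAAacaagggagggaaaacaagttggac
Il1rn: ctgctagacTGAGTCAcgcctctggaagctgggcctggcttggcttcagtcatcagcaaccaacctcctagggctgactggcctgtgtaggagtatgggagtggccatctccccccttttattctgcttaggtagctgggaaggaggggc
Il18bp: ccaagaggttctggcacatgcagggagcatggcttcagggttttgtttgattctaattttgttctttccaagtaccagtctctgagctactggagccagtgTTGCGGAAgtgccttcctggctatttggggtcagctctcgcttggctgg

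All 8 members matched a RefSeq promoter, with 11 starts in all. Il1a and Il1b both carried a TATA box on their own strand, 32 to 27 and 31 to 26 bases before the start. No other member had one on its own strand in 250 bases. Of all 32851 promoters of the same length, 12.4% held TATAAA on either strand, and 1.91% held it on the gene's strand between 40 and 20 bases before the start. An AP-1 match lay 12 to 6 bases before the Il1a start and 141 to 135 bases before the first Il1rn start, against 6.75% of all promoters. C/EBP matches occurred before starts of Il1a, Il1b, Il1rn, Il1r1 and Il18bp, against 36.8% of all promoters, and none of the matches in the 4 printed stretches overlap. The kB site bound by NF-kB matched only before the second Il1r1 start, where it overlapped a C/EBP match, against 7.25% of all promoters. These are letter matches in a window and not shown binding sites.

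In BMMs, no member of the system was called with OVX, though Il1b and Il18bp were lower in OVX by less than the fold limit. Of all 15778 genes tested, 5.90% were called higher and 3.16% lower, beside 0 of the 8 members in either direction by edgeR and 0 by DESeq2. The median log2 fold change of the members was -0.07, and that of all genes was -0.01. In edgeR 2 of the 8, Il1b and Il18bp, had an unadjusted p under 0.05, both lower in OVX, and they were also the only members whose OVX and sham libraries did not overlap, which held for 44.5% of all genes.

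Il1b, the main secreted ligand of macrophages (chr2:129364570-129371139), was at 45.2, 40.8 and 43.9 CPM in sham replicates 1 to 3. In OVX it was at 31.4, 29.4 and 31.0 CPM, so every OVX library lay below every sham library. By qPCR relative to β-actin, the paper reported the opposite direction, with IL-1β higher in OVX than in sham macrophages. The means here were 43.8 ± 2.02 CPM (SD, n = 2) in sham and 30.6 ± 1.07 CPM (SD, n = 3) in OVX. The log2 fold change was -0.52 (SE 0.16, 95% interval -0.90 to -0.14), short of the fold limit, with an edgeR adjusted p of 0.0709. That p depended on the processing: it was between 0.00882 (replicate block, unsummed libraries) and 0.298 (without TMM factors) over the alternatives, with DESeq2 at 0.0261 and trends of GC content and length removed at 0.0258, and at no setting did the fold reach the limit.

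Il18bp (chr7:102014885-102018690) gave the largest log2 difference of the 8 in the main fit, though not with trends removed. It was at 16.05, 13.3 and 15.7 CPM in sham and 7.50, 9.58 and 9.78 CPM in OVX. The highest OVX library thus stayed under the lowest sham library. Its log2 fold change was -0.78 (SE 0.21) and its edgeR adjusted p of 0.0453 passed, but the fold did not reach the limit, so it was not called. The edgeR adjusted p was 0.0693 to 0.146 in 5 of the 6 fits that left out 1 library (0.0392 without sham replicate 2), 0.0572 with trends removed, 0.12 without TMM factors and 0.0082 with the replicate block. Its ligand Il18 ranged more widely within the groups, from 5.63 to 8.80 CPM in sham and from 5.16 to 13.0 CPM in OVX. The groups overlapped for Il18, and its interval of -0.65 to 1.16 on the log2 scale leaves room for a change of either sign.

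The antagonist Il1rn (chr2:24336853-24351494) had the highest level per kilobase of the members in both BMM groups, 45.9 ± 9.26 CPM per kilobase in sham and 46.0 ± 2.31 in OVX. Its libraries were at 290.3, 214.6 and 221.0 CPM in sham and 268.1, 252.5 and 242.7 CPM in OVX. These overlap, and the log2 fold change of 0.00 had an interval of -0.44 to 0.43. The signaling receptor Il1r1 was at 33.6 to 40.2 CPM in sham and 28.8 to 35.9 CPM in OVX. Its co-receptor Il1rap was at 3.10 to 5.89 CPM in sham and 4.92 to 8.57 CPM in OVX. The decoy Il1r2 and the ligand Il1a stayed near 1 CPM, with means of 1.21 and 1.06 CPM in sham and 1.27 and 0.807 CPM in OVX. Those low levels rest on 11 to 60 counts per library, and a change under the fold limit was not detectable for them at this depth.

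**Figure D1:**
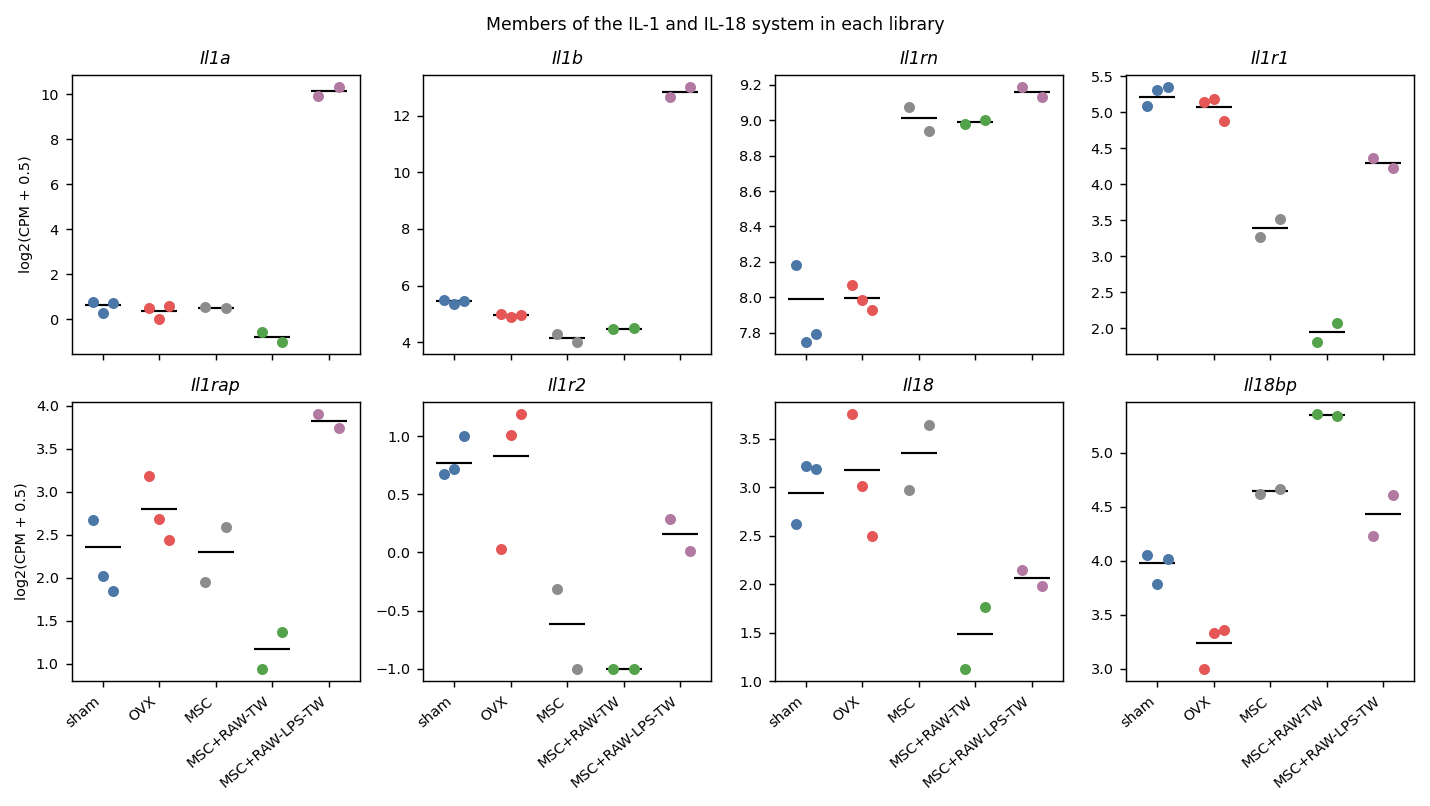
Level of each member in each library, as log2(CPM + 0.5) on the vertical axis of each panel (axes differ between panels), for the 5 groups on the horizontal axis. Points are libraries and lines are group means, in which near-identical libraries count once. Il1a and Il1b of the MSC+RAW-LPS-TW libraries stand far above all other libraries, and Il1rn of all MSC libraries spans only 491.2 to 581.9 CPM.

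Per kilobase, the order in sham was Il1rn (45.9 ± 9.26 CPM per kilobase), Il1b (22.9 ± 1.06), Il18 (6.95 ± 2.104), Il1r1 (5.75 ± 0.67), Il18bp (5.05 ± 0.36), Il1r2 (0.633 ± 0.0844), Il1a (0.539 ± 0.0960) and Il1rap (0.405 ± 0.160; SD, n = 2). Libraries of the neighbours Il18 and Il1r1, Il1r1 and Il18bp, Il1r2 and Il1a, and Il1a and Il1rap overlapped. Only the steps from Il1rn to Il1b, from Il1b to Il18 and from Il18bp to Il1r2 exceeded the spread. In OVX the first 5 places were the same, and Il18bp at 2.96 ± 0.417 CPM per kilobase (SD, n = 3) lay below Il18 and Il1r1 in every library.

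Ratios within a library do not depend on its scaling factor. The ratio of antagonist to ligand, Il1rn to Il1b per kilobase, was 2.21, 1.81 and 1.73 in sham and 2.94, 2.96 and 2.69 in OVX. Every OVX library was thus above every sham library. On the log2 scale the means were 0.986 ± 0.226 (n = 2) and 1.52 ± 0.0753 (n = 3), a difference of 0.53. A two-sided exact permutation test gave p = 0.2, the smallest that 2 against 3 samples can give (0.4 after Benjamini-Hochberg adjustment over both ratios tested). The fitted log2 fold changes of Il1rn and Il1b differed by 0.52, and by 0.0963 with GC content and length trends removed (chosen after seeing the data), so this difference depends on that correction. The ratio of decoy to signaling receptor, Il1r2 to Il1r1, was between 0.100 and 0.127 in sham and between 0.0512 and 0.207 in OVX. Those ranges overlap, and the exact permutation p was 1.0 for a log2 difference of 0.04.

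Base composition moved with the groups in this comparison. Across genes, the Spearman correlation of GC content with the level relative to the experiment mean was -0.615, -0.438 and -0.338 in OVX and 0.220, 0.528 and 0.536 in sham. With GC content and length trends removed, the log2 fold changes of Il1a, Il1b, Il1rn, Il1r1 and Il18bp were -1.05, -0.71, -0.62, -0.58 and -0.73, and those of Il1rap and Il18 turned from 0.49 and 0.25 to -0.19 and -0.09. Il1a, which was at -0.43 (interval -1.48 to 0.63) without the removal, passed the fold limit there but not the test (edgeR adjusted p = 0.203). None of the 8 was called in that fit. Without TMM factors the median of all genes moved to 0.23, and Il1r1 and Il1rn, at 0.10 and 0.25 there, sat below or near that median.

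**Figure D2:**
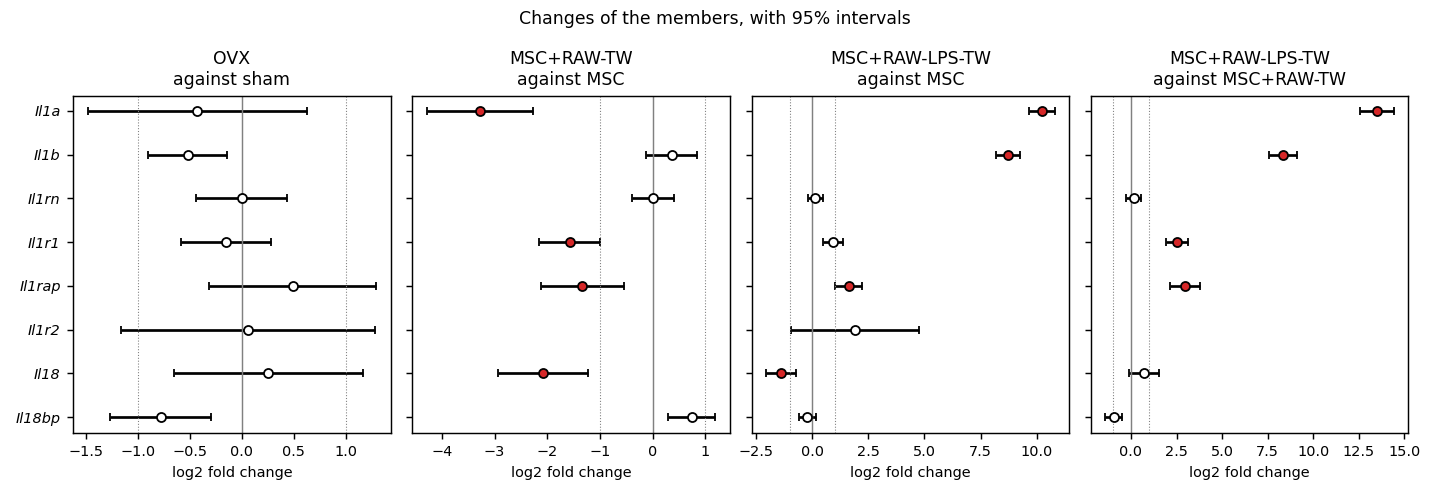
Log2 fold change of each member (horizontal axis, scales differ between panels) in the 4 comparisons, with 95% intervals from edgeR as bars, filled points for called genes and dotted lines at a 2-fold change. In OVX against sham no point is filled, and in both MSC+RAW-LPS-TW panels Il1a and Il1b lie beyond 8 on the log2 scale; Il1r2 is left out of the panels with MSC+RAW-TW, where it had no counts.

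In the libraries labelled MSC, the ligands Il1a and Il1b were far higher after coculture with stimulated RAW264.7 cells than in both other groups. The antagonist Il1rn stayed under the fold limit, and Il18 was lower than in MSC alone but not than in MSC+RAW-TW. Against MSC alone, Il1a, Il1b and Il1rap rose and Il18 fell in MSC+RAW-LPS-TW, which makes 3 of 8 higher and 1 of 8 lower. Of all 18806 genes tested, 6.36% were called higher and 5.40% lower. The libraries of all 8 members did not overlap in this comparison, which held for 59.4% of all genes. The 3 comparisons of the MSC groups share samples, so their values are given side by side and were not compared with each other. In both comparisons with MSC+RAW-TW, its 1 sample was assumed to vary like the other groups, for all members and lists. Base composition set this group apart too. The Spearman correlation of GC content with the level, as above, was 0.411 and 0.408 in MSC+RAW-TW. It was negative in MSC (-0.242 and -0.321) and in MSC+RAW-LPS-TW (-0.289 and -0.148). With GC content and length trends removed, the log2 rise of Il1r1 between the transwell groups was 1.94 instead of 2.51. That of Il1rap was 2.13 instead of 2.97. MSC+RAW-TW against MSC gave -1.05 instead of -1.57 for Il1r1 and -1.74 instead of -2.08 for Il18.

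Il1b was at 18.9 and 15.8 CPM in MSC, at 21.7 and 22.3 CPM in MSC+RAW-TW and at 6397 and 8169 CPM in MSC+RAW-LPS-TW. In the last group it was the first of the members per kilobase, at 3819 ± 656.7 CPM per kilobase (SD, n = 2). The mean was 419.5 times that of MSC, and the log2 fold change was 8.71 (SE 0.25, edgeR adjusted p = 2.83e-09). Against MSC+RAW-TW it was 8.35 (SE 0.34, edgeR adjusted p = 5.99e-08), where that group's lone sample was assumed to vary like the other groups. Between MSC+RAW-TW and MSC the difference of 0.36 was not called (edgeR adjusted p = 0.238).

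Il1a (chr2:129299610-129309972), which acts both as a cytokine and inside the cell, had 0.960 and 0.910 CPM in MSC, from 47 and 31 counts. Its libraries in MSC+RAW-TW held 7 and 0 counts, or 0.171 and 0 CPM. In MSC+RAW-LPS-TW it reached 979.2 and 1276 CPM. The lower of these was 1020 times the higher MSC library. The log2 fold change against MSC was 10.23 (SE 0.26, edgeR adjusted p = 2.11e-09). Il1a was also lower in MSC+RAW-TW than in MSC, by a fitted -3.28 (edgeR adjusted p = 0.00144). The size of that step and of the 13.51 against MSC+RAW-TW rests on those 7 counts: without the library that holds them they were -8.10 and 18.33, and without the one at 0 they were -2.44 and 12.66.

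The ratio of both ligands changed as well. Il1b exceeded Il1a per kilobase by 20.2 and 17.7 times in the MSC libraries and by 6.76 and 6.63 times in MSC+RAW-LPS-TW. In BMMs this ratio ran from 31.4 to 59.7. The ratio was lower in both MSC+RAW-LPS-TW libraries than in any other library.

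Il1rn was at 539.3 and 491.2 CPM in MSC, at 504.4 and 512.3 CPM in MSC+RAW-TW and at 581.9 and 560.2 CPM in MSC+RAW-LPS-TW. It was the first of the members per kilobase in MSC (93.1 ± 6.14, n = 2) and in MSC+RAW-TW (91.8), and the third in MSC+RAW-LPS-TW (103.2 ± 2.77, n = 2) after Il1b and Il1a. The log2 differences were 0.15 against MSC (interval -0.17 to 0.47, edgeR adjusted p = 0.546), 0.15 against MSC+RAW-TW (interval -0.25 to 0.54) and 0.00 between MSC+RAW-TW and MSC. With GC content and length trends removed, the middle value turned to -0.59 and the last to 0.68, both under the fold limit. How little Il1rn differed from MSC+RAW-TW thus depends on that correction. Without TMM factors the first and the last turned to -0.09 and -0.35, where the medians of all genes were -0.24 and -0.43.

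The ratio of Il1rn to Il1b per kilobase was 9.81 and 10.7 in MSC and 8.01 and 7.92 in MSC+RAW-TW, but 0.0313 and 0.0236 in MSC+RAW-LPS-TW. Antagonist transcripts outnumbered those of the ligand in 10 of the 12 libraries, and the exceptions were the MSC+RAW-LPS-TW libraries.

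**Figure D3:**
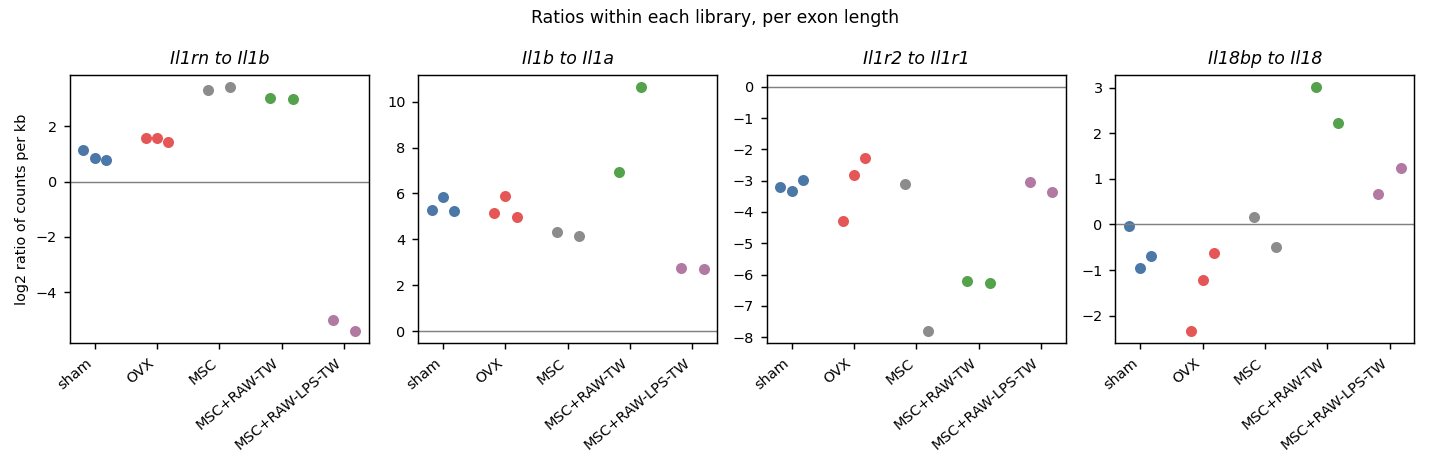
Log2 ratios of counts per kilobase within each library (vertical axes differ between panels) for antagonist to ligand, both IL-1 ligands, decoy to signaling receptor, and IL-18 binding protein to IL-18, by group. Each point is a library, and the line at 0 marks equal counts per kilobase. The ratio of Il1rn to Il1b lies above 0 in all groups except MSC+RAW-LPS-TW, where it is near -5.00 and -5.40.

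Il1r1 and Il1rap rose in MSC+RAW-LPS-TW relative to MSC+RAW-TW, while the call of Il1r2 rested on few counts. Il1r1, which carries the signal (chr1:40225080-40317257), was at 9.13 and 10.9 CPM in MSC, at 3.01 and 3.68 CPM in MSC+RAW-TW and at 20.1 and 18.2 CPM in MSC+RAW-LPS-TW. The groups did not overlap. It fell in MSC+RAW-TW against MSC (log2 fold change -1.57, SE 0.27, edgeR adjusted p = 0.00235) and rose between MSC+RAW-TW and MSC+RAW-LPS-TW (2.51, SE 0.28, adjusted p = 5.15e-05). Against MSC alone the rise of 0.93 missed the fold limit (edgeR adjusted p = 0.00587). It was called when MSC replicate 2 was left out (1.07) or the library headed MRL-3 (1.01).

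Il1rap, the co-receptor that both IL-1 and IL-33 receptors need (chr16:26581704-26730117), followed the same order, with 3.35 and 5.52 CPM in MSC, 1.42 and 2.07 CPM in MSC+RAW-TW and 14.4 and 12.9 CPM in MSC+RAW-LPS-TW. It rose against MSC by 1.63 (SE 0.27, edgeR adjusted p = 0.00125) and against MSC+RAW-TW by 2.97 (SE 0.38, adjusted p = 0.00014) on the log2 scale. Its fall in MSC+RAW-TW against MSC (log2 fold change -1.34, edgeR adjusted p = 0.0175) was no longer called without MSC replicate 2 (-0.95) or with GC content and length trends removed (-0.59).

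The decoy Il1r2 (chr1:40074079-40125231) was close to the limit of detection, with 15 and 0 counts in MSC, 0 in both MSC+RAW-TW libraries and 24 and 16 in MSC+RAW-LPS-TW. Its lowest MSC+RAW-LPS-TW library was at least 5.91-fold higher than a floor of 3 counts in the MSC+RAW-TW libraries. The edgeR call against MSC+RAW-TW (adjusted p = 0.0365) was lost without either MSC+RAW-TW library (0.0628 and 0.0547) and without the library headed MRL-2 (0.0551). Against MSC the interval of -0.95 to 4.78 on the log2 scale shows no direction.

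Il18 (chr9:50554827-50581840) encodes a cytokine that, like Il1b, is made as a precursor, and among the MSC groups its level was highest in MSC alone. It was at 7.33 and 12.0 CPM in MSC, at 1.69 and 2.91 CPM in MSC+RAW-TW and at 3.93 and 3.45 CPM in MSC+RAW-LPS-TW. It fell in both transwell groups against MSC, with log2 fold changes of -2.08 (SE 0.39, edgeR adjusted p = 0.00357) and -1.39 (SE 0.30, adjusted p = 0.00598). The latter was not called without MSC replicate 2 (-0.99, edgeR adjusted p = 0.0995). The difference of 0.69 between both transwell groups was not called (edgeR adjusted p = 0.152), but it was called without the second MSC+RAW-TW library (1.13).

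Il18bp was highest in MSC+RAW-TW, at 40.48 and 40.05 CPM, against 24.1 and 24.9 CPM in MSC and 18.3 and 23.9 CPM in MSC+RAW-LPS-TW. Its log2 difference of 0.74 between MSC+RAW-TW and MSC (edgeR adjusted p = 0.0203) and of -0.95 between the transwell groups (adjusted p = 0.00337) were both below the fold limit. The latter was called without the library headed MRL-3 (-1.15). Per kilobase, Il18bp stood at 8.12 and 4.67 times Il18 in MSC+RAW-TW, at 1.58 and 2.36 times in MSC+RAW-LPS-TW and at 1.12 and 0.706 times in MSC. In the BMM libraries it was below Il18 throughout, at 0.197 to 0.970 times.

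Counted over the members, the comparison of MSC+RAW-LPS-TW with MSC+RAW-TW called 5 of 8 higher and 0 lower, beside 17.6% and 13.1% of all genes. In MSC+RAW-TW against MSC 0 were called higher and 4 lower, beside 7.35% and 11.1% of all genes, and the 4 were Il1a, Il1r1, Il1rap and Il18. Il18bp was the 1 member with an unadjusted edgeR p under 0.05 in the direction that held no call, in each of these comparisons, and DESeq2 called 0 there as well. The members' median log2 fold changes were 2.74 and -1.45, against 0.08 and -0.08 for all genes. Libraries of a group pair did not overlap for 80.1% and 79.8% of all genes in these comparisons.

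Library numbers in the column headers fell into 2 runs, each with 1 library of every MSC group, so the comparisons could be repeated within runs. On the log2(CPM + 0.5) scale, Il1b differed between MSC+RAW-LPS-TW and MSC by 8.36 and 8.97, Il1a by 9.39 and 9.82, Il1rap by 1.96 and 1.15, and Il18 by -0.82 and -1.66. The directions were the same in both runs for these 4 members. For OVX against sham, Il1b differed by -0.46 and -0.51 and Il18bp by -0.45 and -0.84 within the runs. These are not independent repeats, since sham replicates 2 and 3, which were counted as 1 sample, lay in different runs.

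Cell markers moved with the same groups. The 16 macrophage markers summed to 29590 CPM in MSC, 39460 to 40040 CPM in MSC+RAW-TW and 15690 to 16610 CPM in MSC+RAW-LPS-TW, and most of the gap between MSC and MSC+RAW-LPS-TW was Lyz2, at 21660 and 9586 CPM. Without Lyz2 (chosen after seeing the data) the sums were 7884 to 7977, 13190 to 13370 and 6538 to 6596 CPM. None of the 16 was at 0 in any group. In MSC+RAW-LPS-TW against MSC, 1 of the 16 rose, 6 fell and 6 had a log2 fold change above 0. The one that rose was Adgre1, the gene of F4/80 (log2 fold change 1.42), while Csf1r (-0.55) was not called and Cd68 (-2.82) and Mrc1 (-7.20) fell. The 12 neutrophil markers summed to 63.2 to 67.1 CPM in MSC and to 502.3 to 656.8 CPM in MSC+RAW-LPS-TW, of which S100a8, which macrophages also make, took 341.1 to 516.9 CPM. Of the 5 neutrophil markers with enough counts for a test, 3 rose and all 5 had a log2 fold change above 0. Camp rose from 0.592 to 34.2 CPM and Mmp8 from 6.70 to 29.5 CPM, while Csf3r, at 44.3 and 86.6 CPM, was not called. Elane, Ltf, Retnlg and Cxcr2 were at 0 in MSC+RAW-LPS-TW, and Ly6g was at most 0.06 CPM. The 14 stromal markers summed to 3073 to 3169 CPM in MSC, 2443 to 2462 CPM in MSC+RAW-TW and 4498 to 4579 CPM in MSC+RAW-LPS-TW, where 4 rose against MSC and 0 fell (Dcn, the proteoglycan decorin, went from 7.58 to 193.9 CPM). Mast cell and basophil markers summed to 45.0 to 51.8 CPM in MSC and 112.0 to 121.4 CPM in MSC+RAW-LPS-TW, with 2 of the 5 tested (Mcpt8 and Hdc) higher. The part of these cells in the levels of the members was not tested.

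Of the wider pathway, 4 lists with 50 genes were examined. The genes known to be inducible by IL-1, many of which lipopolysaccharide also induces, all moved with the ligands: 16 of 16 rose in MSC+RAW-LPS-TW, both against MSC (median log2 fold change 5.43) and against MSC+RAW-TW (5.55), beside medians of -0.01 and 0.08 for all genes, of which 6.36% and 17.6% were called higher. The count was 16 under each alternative tried. Nos2, the inducible nitric oxide synthase, rose from 1.79 ± 0.62 CPM (n = 2) in MSC to 864.9 ± 83.0 CPM (n = 2), and Il6 from 0.456 ± 0.106 to 204.2 ± 17.0 CPM. Csf3, the granulocyte growth factor, rose from 0.404 to 143.1 CPM. In MSC+RAW-TW against MSC, 2 of 16 rose (Il6 by 1.93 and Saa3 by 1.14) and 2 fell (Cxcl1 with a log2 fold change of -2.07 and Ccl2 with -1.34). Of all genes tested, 7.35% were called higher and 11.1% lower there, so these counts were close to the background. Saa3 was not called without TMM factors, nor Ccl2 with trends removed.

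In BMMs 7 of these 16 genes fell with OVX and 1 rose, with a median log2 fold change of -0.99 beside -0.01 for all genes, of which 3.16% were called lower and 5.90% higher. Without OVX replicate 2 the count that fell was 4, and with GC content and length trends removed 9 fell and 0 rose. Macrophage markers summed to 61340 to 65880 CPM in sham and 44320 to 48880 CPM in OVX beside this (12960 to 14300 and 7693 to 8654 CPM without Lyz2). The 12 neutrophil markers summed to 877.0 to 1026 CPM in sham and 1242 to 1382 CPM in OVX, with S100a8 at 327.0 and 472.4 CPM and S100a9 at 393.1 and 631.3 CPM. Others of the list were lower in OVX, with Csf3r at 61.1 and 31.6 CPM, Mpo at 11.2 and 5.76 CPM and Elane at 9.51 and 6.37 CPM, and 7 of the 12 had a log2 fold change above 0. None of the 12 was at 0 and none was called. Of the 16 macrophage markers, 4 fell and 1 rose (Mrc1, from 50.3 to 203.4 CPM). Of the 14 stromal markers, 2 rose and 0 fell. Of the 7 B cell markers tested 2 fell, and of the 4 dendritic cell markers tested 1 fell. No T and NK or mast cell marker was called. The part of all these markers' cells in the IL-1-inducible list was not tested. Among the IL-1-inducible genes, the matrix metalloproteinase Mmp3 led the fall, from 113.2 ± 0.867 CPM (n = 2) in sham to 8.26 ± 0.662 CPM (n = 3) in OVX. The acute-phase gene Saa3 (log2 fold change -3.50) and Nos2 (-2.60) came next. The gene that rose was Ptgs2, the inducible cyclooxygenase, by 1.32 (edgeR adjusted p = 0.00834). These genes answer to many stimuli besides IL-1. For Nos2 (named Inos there), the paper's qPCR reported the opposite direction, higher in OVX than in sham macrophages.

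**Figure D4:**
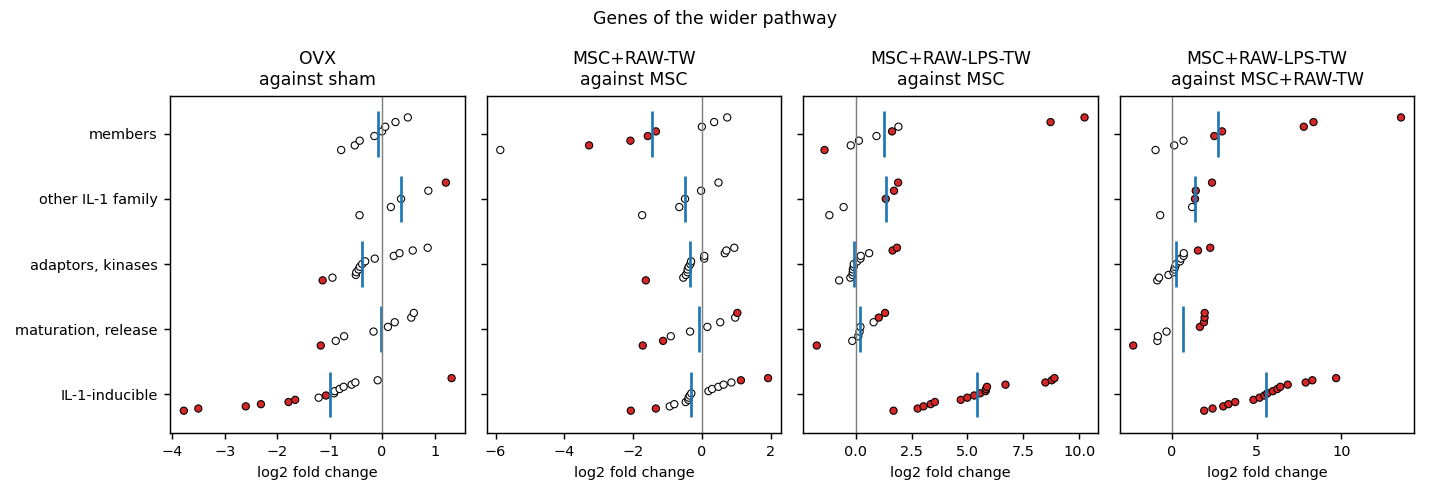
Log2 fold change (horizontal axis, scales differ) of each tested gene in the member list and the 4 lists of the wider pathway, for the 4 comparisons. Points are genes, filled where called, and the vertical bars are list medians. All 16 IL-1-inducible genes lie to the right of 0 in both MSC+RAW-LPS-TW panels, and 15 of 16 lie to the left of 0 in OVX against sham.

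Receptors of the related IL-33, IL-36 and IL-18 systems were in the list of other family members, of whose 13 genes 9 were matched and 5 had enough counts for a test. Il1rl1 (the IL-33 receptor), Il1rl2 (the IL-36 receptor) and Il18rap (the accessory chain of the IL-18 receptor) rose in MSC+RAW-LPS-TW. Against MSC they rose by 1.72, 1.35 and 1.90, and against MSC+RAW-TW by 2.37, 1.37 and 1.42 (Il18rap not with trends removed). Of all genes, 6.36% and 17.6% were called higher in these comparisons, and 5.90% with OVX. Il18rap also rose with OVX (log2 fold change 1.22, SE 0.33, edgeR adjusted p = 0.0461), from 1.64 ± 0.588 CPM (n = 2) to 3.88 ± 0.511 CPM (n = 3). That call was lost without OVX replicate 1, 2 or 3, without sham replicate 2 or 3, and with GC content and length trends removed. The binding chain Il18r1 was too low for a test, at most 0.485 CPM in any library. Sigirr, an inhibitory member of the family, was at most 2.22 CPM and was called nowhere. None of the 5 was called in MSC+RAW-TW against MSC, beside 7.35% of all genes called higher and 11.1% lower.

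Of the 13 receptor adaptors and kinases, 2 rose in MSC+RAW-LPS-TW against MSC, beside 6.36% of all genes, and 1 fell with OVX, beside 3.16% of all genes. Irak3, an inhibitory kinase-like protein of the receptor complex, rose in MSC+RAW-LPS-TW from 90.6 ± 2.44 to 326.7 ± 6.15 CPM (n = 2 each; log2 fold change 1.85), and Irak2 rose by 1.65. In OVX Irak3 was the only one of the 13 called, and it fell from 122.7 ± 18.5 to 56.0 ± 4.13 CPM (log2 fold change -1.13, edgeR adjusted p = 0.00946). It was not called without OVX replicate 2, without sham replicate 1 or without TMM factors. Myd88, the adaptor all these receptors share, differed by -0.95 with OVX, under the fold limit, and by 0.22 in MSC+RAW-LPS-TW against MSC. Against MSC+RAW-TW, Irak3 (2.27) and Tab3 (1.55) rose, and Tab3 alone fell in MSC+RAW-TW against MSC (-1.63). Of all genes, 17.6% were called higher in the former comparison and 11.1% lower in the latter, so these calls did not exceed the background. Both Tab3 calls were lost with GC content and length trends removed.

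The 8 genes of ligand maturation and release moved in mixed directions. Of all genes, 6.36% were called higher and 5.40% lower in MSC+RAW-LPS-TW against MSC. These shares were 17.6% and 13.1% against MSC+RAW-TW, 7.35% and 11.1% for MSC+RAW-TW against MSC, and 5.90% and 3.16% with OVX. Nlrp3, the inflammasome sensor, rose in MSC+RAW-LPS-TW from 77.3 ± 3.19 to 192.9 ± 21.4 CPM (log2 fold change 1.32), and Casp4 rose by 1.04, a call lost without MSC replicate 1, the library headed MRL-2 or TMM factors. The inflammasome adaptor Pycard fell there from 94.1 ± 2.999 to 28.3 ± 2.74 CPM (log2 fold change -1.73), and it fell with OVX as well (-1.17, edgeR adjusted p = 0.0139), though not without OVX replicate 2 or without TMM factors. Casp1, whose product cleaves IL-1β and IL-18, did not pass against MSC (0.18), but rose against MSC+RAW-TW (1.90), where Nlrp3 (1.66), Casp4 (1.94) and Nlrc4 (1.93) rose too and Pycard fell (-2.27). In MSC+RAW-TW against MSC, Casp1 (-1.72) and Nlrc4 (-1.13) fell and Gsdmd, which forms the release pore, rose (1.03). The Gsdmd call was lost without MSC replicate 2 and without TMM factors, and both Gsdmd and Nlrc4 were lost with trends removed. Neither Casp1 (0.60) nor Nlrp3 (0.24) was called with OVX.

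The genes most like the members were listed by the Pearson correlation of log2(CPM + 0.5), with the mean of each experiment removed, over the 10 distinct samples and among 9726 genes. For Il1b these were Ptges, Camp and Rasl12, each at r = 0.994. Ptges, which makes prostaglandin E, was at 26.03, 14.9, 21.7, 29.9 and 855.4 CPM in sham, OVX, MSC, MSC+RAW-TW and MSC+RAW-LPS-TW. For Il1rn they were Tsr3 (0.981), Tubb4b (0.955) and Gosr2 (0.948), and for Il1r1 Dennd5a (0.986), Trim30a (0.978) and Mlkl (0.978). For Il18 they were Micu2 (0.970), Agfg1 (0.941) and D1Ertd622e (0.935). For Il18bp they were Sun2 (0.979), Ndufa9 (0.977) and Tmem192 (0.976). The points share libraries, and for Il1b both MSC+RAW-LPS-TW samples lie far from all others, so these values describe a shared pattern only.

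Exons of 4 members overlap a gene on the other strand, and the strand setting of the counting was not stated. The overlaps are 222 bases of Il1a (11.2% of its exon length) with Gm14023, 25 bases of Il1b with Il1bos, 552 bases of Il1rap with Gm20319 and 80 bases of Il18bp with Numa1. Without strand, reads in these stretches cannot be assigned to either gene. Averaged over the BMM and over the MSC libraries, Numa1 was at 39.5 and 169.0 CPM and Gm14023 at 0.365 and 8.23 CPM. Il1bos was at 0.0299 and 0.377 CPM, and Gm20319 was at 0 in both. The part of such reads in the levels of the members was not tested.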

How the data were processed

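RNA was measured in 12 libraries, 6 of BMMs and 6 labelled MSC. The deposited values were raw counts per Ensembl gene and library, which the authors made after a directional library preparation of poly(A) RNA. Per the submitters' processing notes and the methods, the tools were Trim Galore 0.6.7, HISAT2 2.1.0 and featureCounts 2.0.1 on GRCm38; strand and read-pair settings were not stated. Of the 55487 identifiers, 55141 were given a gene symbol and 55227 were found in the GENCODE M21 annotation. Both MSC+RAW-TW columns are headed MR-1 and the MSC+RAW-LPS-TW columns MRL-2 and MRL-3, so these libraries were assigned to groups and not to numbered replicates.

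Counts were fitted in edgeR 4.0.16 (R 4.3.3) with TMM normalization, filterByExpr and the quasi-likelihood F-test, over all genes of each experiment and with near-identical libraries summed. Tests were two-sided. Standard errors were the log2 fold change divided by the root of F. Ratios used counts per kilobase of exon plus 0.5 counts and an exact permutation test in SciPy 1.17.1. Library size, 17012923 counts or more, limited the precision of genes near 1 CPM.

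Genes named are the 8 members, up to 3 called genes of largest change and at least 1 CPM per list and comparison, 8 receptors, adaptors and inflammasome genes, defining markers, and the 3 genes most like 5 members. Ptgs2, Lyz2, the neutrophil genes other than S100a8, Ly6g and Csf3r, and genes with overlapping exons were named after their values were seen. Of the 7 marker lists, dendritic, T and NK, B, and mast cell markers summed to at most 91.6, 6.98, 49.6 and 121.4 CPM in any library. Members and lists were chosen with earlier results of these data known. Promoters came from RefSeq (GRCm38.p6). Alternatives were other normalizations, filters, DESeq2 1.42.0, removal of GC and length trends, unsummed libraries, a replicate block, library number runs, and each library left out. Replicate numbers of OVX and sham were not taken as pairing, and the labels state none. Deviations of same-numbered libraries correlated at 0.488, -0.05 and 0.466, which does not settle whether they were paired.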

Additional observations from a re-analysis of the deposited data

How the results depend on the processing

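Genes called for OVX against sham numbered 1430, of which 65.1% were higher. With GC content and length trends removed they numbered 594, with 38.0% higher, and without TMM factors (chosen after seeing the data) 86.5% were higher. Leaving out 1 library gave 347 (without OVX replicate 2) to 2374 (without sham replicate 1) calls, and 698 without OVX replicate 1. Unsummed libraries gave 1818, and 2117 with a replicate block. For MSC+RAW-TW against MSC, 3474 calls became 2100 with trends removed. Without TMM factors the share of higher calls there went from 39.8% to 13.3%, and for MSC+RAW-LPS-TW against MSC from 54.1% to 36.1%. The OVX difference of Il1r2 to Il1r1 ranged from -0.38 to 0.63 as libraries were left out. Other sign changes concerned values not called. For OVX against sham, Il1rn was 0.0049 at a mean of at least 1 CPM, 0.072 with unsummed libraries, 0.0845 with the replicate block, 0.0768 with library number run as a term, 0.25 without TMM factors and -0.0423 to 0.22 as libraries were left out. Il1r1 was 0.10 without TMM factors. Il1r2 was -0.12 with the replicate block and -0.25 to 0.43 as libraries were left out, Il1rap -0.19 with trends removed, and Il18 -0.087 with trends removed and -0.17 to 0.52 as libraries were left out. Il1rn turned to -0.0857 (MSC+RAW-LPS-TW against MSC, without TMM factors), to -0.59 (against MSC+RAW-TW, trends removed) and, for MSC+RAW-TW against MSC, to -0.35 without TMM factors, -0.0196 unsummed, -0.0181 with library number run, -0.0183 with only the groups compared and -0.0715 to 0.0629 as libraries were left out. The causes were not tested. The calls of Il1a and Il1b in both MSC+RAW-LPS-TW comparisons held under every alternative run. The block changed no call of a member. No replicate block was possible for the MSC groups because both MSC+RAW-TW columns carry the number 1 and the MSC+RAW-LPS-TW columns 2 and 3. With library number run as a term on unsummed libraries, calls there were 2383, 6629 and 4489 (MSC+RAW-LPS-TW against MSC and against MSC+RAW-TW, MSC+RAW-TW against MSC), beside 2412, 6718 and 4574 without it.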
